A study of Mus musculus with 6 samples.

Results

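The genes described here are 45 mouse genes of 6 families that are best known from the gut, the stomach, the pancreas and the liver: alpha-defensins (Defa), regenerating-family lectins (Reg), trefoil factors (Tff), fatty acid-binding proteins (Fabp) and the carboxylesterases of groups Ces1 and Ces2. They were chosen by symbol alone, from probes named through their transcript accessions, and each gene was read by the brightest of its probes. The reference gene table lists 65 genes that fit the rule, and 45 of them had a probe with a single symbol, among 20866 genes named on the array. By family these were 12 of 28 Defa, 7 of 7 Reg, 3 of 3 Tff, 9 of 11 Fabp, 7 of 8 Ces1 and 7 of 8 Ces2 genes. In RefSeq's annotation all Defa, Ces1 and Ces2 genes measured here lie on chromosome 8, all Tff genes on chromosome 17, 6 Reg genes on chromosome 6 with Reg4 on chromosome 3, and 5 of the 9 Fabp genes on chromosome 3. A further 2 probes matched a pair of Defa genes each and were left out.

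Expression was measured on 6 one-colour Agilent arrays, 1 for each of 2 genotypes in each of 3 sorted thymic populations. The genotypes were a double knockout of TNF and RelA (TNF/RelA-DKO) and a knockout of TNF (TNF-KO), both C57BL/6, so that every mouse in the comparison lacked TNF. The mice were 1.5 to 2 weeks old. RNA came from pools: 10 thymi per genotype for CD45-EpCAM+ cells, the thymic epithelial cells, and for CD45+EpCAM- cells, and 5 mice per genotype for CD4+CD25hi thymocytes, a gate for regulatory T cells. The CD45+EpCAM- cells are a stromal fraction with macrophages and dendritic cells, in which T cell genes were also high (values below). The labels name no Cre driver or cell type for the loss of RelA. With 1 array per group, the genotypes cannot be set against any replicate spread inside a population. Where p-values are given, they rest on these arrays only. Their spread is how far the genotype difference varied between the populations, not a spread between replicates. A gene whose genotype difference was confined to 1 population therefore has a large standard error (SE).

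Medullary epithelial cells of the thymus transcribe many genes that otherwise belong to single peripheral organs, which displays those proteins to developing T cells. Aire and Fezf2 are regulators of this programme, and part of it is made by medullary cells that take on features of gut, skin or other epithelia. RelA is the p65 subunit of NF-kB, a transcription factor family on which medullary epithelium depends. In the gut, alpha-defensins and Reg3 lectins are antimicrobial proteins of Paneth cells and enterocytes, trefoil factors protect mucous surfaces, fatty acid-binding proteins carry lipids inside absorptive cells, and carboxylesterases cleave esters of lipids and drugs. The family names are broader than the gut: Fabp4 is a fat cell and macrophage protein, Fabp5 an epidermal, Fabp7 a brain and Fabp9 a testis protein, and most Ces1 enzymes are known from liver.

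Promoter sequence was available in RefSeq (GRCm38.p6) for 28 of the 45 genes, matched by symbol, in 29 windows of 300 bases each. The stretches below are those of 7 genes whose values the results turn on: the lectins Reg3g and Reg3b, the defensins Defa38 and Defa42, the lipid carriers Fabp1 and Fabp6, and the esterase Ces2c. They are written 5′ to 3′ on the strand of the gene, and capitals mark the motifs searched for, on either strand: a TATA box in all but Ces2c, CDX forms in Fabp1 and Fabp6, an HNF4 form in Fabp6 and an NF-kB form in Ces2c. Positions count from 0 at the first base of the gene. Reg3g is given at chr6:78468875-78468974 (minus strand), Reg3b at chr6:78370785-78370884 (plus strand), Defa38 at chr8:21096091-21096180 (minus strand) and Defa42 at chr8:21456558-21456647 (minus strand). Fabp1 is given at chr6:71199759-71199878 (plus strand), Fabp6 at chr11:43601563-43601682 (minus strand) and Ces2c at chr8:104846888-104847007 (plus strand).
Reg3g: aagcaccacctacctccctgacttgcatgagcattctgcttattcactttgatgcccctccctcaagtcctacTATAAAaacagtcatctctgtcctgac
Reg3b: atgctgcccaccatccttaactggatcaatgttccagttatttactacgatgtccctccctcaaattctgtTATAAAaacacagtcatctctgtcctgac
Defa38: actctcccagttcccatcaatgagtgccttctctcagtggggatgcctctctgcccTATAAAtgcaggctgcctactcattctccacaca
Defa42: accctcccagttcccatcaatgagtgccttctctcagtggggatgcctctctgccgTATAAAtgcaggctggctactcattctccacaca
Fabp1: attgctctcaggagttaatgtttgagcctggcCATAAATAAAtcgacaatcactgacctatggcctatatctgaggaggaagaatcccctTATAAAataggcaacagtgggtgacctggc
Fabp6: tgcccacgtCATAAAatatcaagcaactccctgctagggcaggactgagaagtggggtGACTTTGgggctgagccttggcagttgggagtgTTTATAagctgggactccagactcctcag
Ces2c: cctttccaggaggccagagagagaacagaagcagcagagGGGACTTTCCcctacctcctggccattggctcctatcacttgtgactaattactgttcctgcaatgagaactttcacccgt
The TATA box, searched as TATAAA, stood in 12 of the 29 windows, against 13.6% of 32851 RefSeq promoter windows of the same length. It was in 5 of 5 Defa windows, 4 of 7 Reg windows and 2 of 5 Fabp windows. The boxes of Reg3g and Reg3b began at -27 and -29. Those of Defa38 and Defa42 both began at -74, in a pair of windows that were 97.3% identical, whereas the windows of Reg3g and Reg3b shared 68.3% of their bases. The letters TTTATG, a form of the site of the intestinal factors CDX1 and CDX2, were in 10 of 29 windows, against 11.9% of all windows, and 5 of these 10 belonged to the 6 Ces1 windows. Ces1b has 2 overlapping windows, whose matches at -85 and -8 are the same site, so that the 10 windows stand for 9 genes. The other CDX form, TTTATT, was in 4 of 29 windows, against 19.6% of all. In Fabp1 both forms overlapped in one run of capitals. The HNF4 form CAAAGTC was in 2 of 29 windows, those of Fabp6 and Ces2g, against 4.44% of all. A form of the NF-kB site, capitalised above, was in the window of Ces2c alone, from -141 to -132, against 1.63% of all windows. These matches describe letters in a short window and show nothing on binding.

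All values below are levels or differences on a log2 scale. A level is the log2 processed signal of a probe minus the 75th percentile of its array, and a difference is TNF/RelA-DKO minus TNF-KO. Detection, here "well above background", follows the flag set by the scanner software. A gene detected on 1 array of a pair has only a bound, written "at least" or "or more": its dim side was raised to that array's lowest detected value wherever it lay below it. Levels of different genes come from different probes and are not compared.

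The arrays of CD45-EpCAM+ cells differed in brightness. The 75th percentile of the signal was 108 on the TNF/RelA-DKO and 370 on the TNF-KO array of CD45-EpCAM+ cells, and 47.3% and 66.2% of probes were well above background. On the other 4 arrays these values lay between 272 and 675, and between 55.1% and 65.0%. Rela itself had levels of 1.81 and 3.84 in TNF/RelA-DKO and TNF-KO CD45-EpCAM+ cells, 3.30 and 4.04 in CD45+EpCAM- cells, and 2.66 and 4.52 in CD4+CD25hi cells, lower in the double knockout each time. For Tnf, which is disrupted in all mice, the difference was -0.07 in CD45+EpCAM- and -0.14 in CD4+CD25hi cells, and in CD45-EpCAM+ cells it was dim in TNF/RelA-DKO, lower by 2.30-fold or more. The place of either probe relative to the disrupted part was not analysed here. Epcam, the sorting marker, had levels of 1.49 and 2.12 in TNF/RelA-DKO and TNF-KO CD45-EpCAM+ cells and between -4.36 and -3.09 on the other 4 arrays. Foxp3 had levels of 4.79 and 4.47 in TNF/RelA-DKO and TNF-KO CD4+CD25hi cells, and was not detected in CD45-EpCAM+ cells. The summed signal of 9 macrophage genes, in units of the 75th percentile, was 42.3 and 35.2 in TNF/RelA-DKO and TNF-KO CD45-EpCAM+ cells, against 31.0 and 17.1 in CD45+EpCAM- cells. Vcam1, an adhesion molecule, carried most of the epithelial sums: over the other 8 genes they were 10.3 and 7.98 in CD45-EpCAM+ cells, against 19.2 and 11.8 in CD45+EpCAM- cells. For 8 T cell genes the summed signal was 379 and 421 in TNF/RelA-DKO and TNF-KO CD45+EpCAM- cells, above the 281 and 300 in CD4+CD25hi cells.

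The families were detected mainly in the epithelial sort. Of the 45 genes, 21 were well above background in TNF/RelA-DKO CD45-EpCAM+ cells and 43 in TNF-KO CD45-EpCAM+ cells. The numbers were 14 and 10 in TNF/RelA-DKO and TNF-KO CD45+EpCAM- cells, and 7 in both genotypes of CD4+CD25hi cells. Of all probes, 47.3% and 66.2% were so detected in TNF/RelA-DKO and TNF-KO CD45-EpCAM+ cells. The shares were 65.0% and 62.1% in CD45+EpCAM- cells, and 55.1% and 56.5% in CD4+CD25hi cells. In TNF/RelA-DKO CD45-EpCAM+ cells the 45 genes were thus detected about as often as all probes. Ces1g and Ces2h, a liver esterase and a little-studied relative, passed on no array. Averaged over the genotypes, with dim values included, 44 of 45 genes were higher in CD45-EpCAM+ cells than in either other population, and Reg3d was the exception, beside 55.4% of all genes. Dim values count in this share, those of Ces1g and Ces2h included, and the lowest detected value lay higher on the TNF/RelA-DKO CD45-EpCAM+ array than on the others. Of the 21 genes detected on both CD45-EpCAM+ arrays all 21 were higher, beside 41.3% of all genes so detected. Both shares take genes by their detection in CD45-EpCAM+ cells, which favours that direction. Many of the 21, among them Reg3g and Fabp6, were detected on no other array, so that this count is not independent support. Each population lay on a slide of its own, and the CD45-EpCAM+ slide was scanned on another day and with another version of the array design, so that in these comparisons a population cannot be told apart from its slide.

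**Figure D1:**
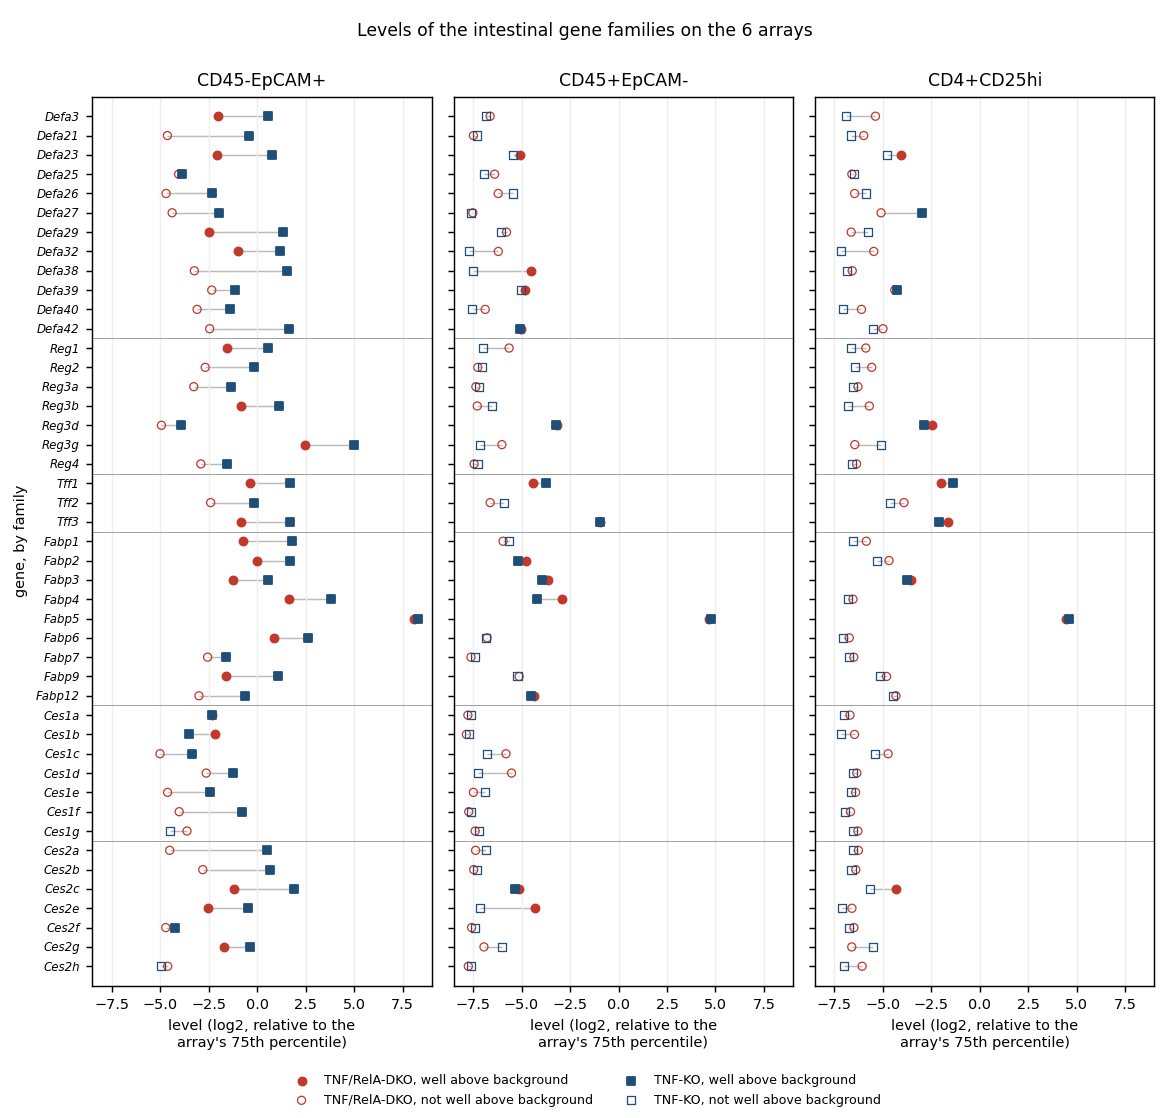
Level of each gene on each array (x axis, log2 relative to the array's 75th percentile), with genes grouped by family on the y axis and 1 panel per population; circles are TNF/RelA-DKO, squares TNF-KO, filled symbols are well above background and grey lines join the genotypes. In CD45-EpCAM+ cells most circles lie left of their squares, those of Fabp5 and Ces1a nearly coincide with them and those of Ces1b and of the dim Ces1g and Ces2h lie to the right, whereas in the other populations most symbols are open.

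Between populations, 13 of the 45 genes were well above background on at least 3 arrays and could be tested with limma among 13743 genes. Against CD4+CD25hi cells, 10 of the 13 were higher in CD45-EpCAM+ cells and 1 was lower, with calls made at an adjusted p of 0.05 and a change of 2-fold or more. Of all tested genes 20.7% were called higher and 18.3% lower. Among the members called higher, Defa42, Fabp2, Fabp4 and Ces2e were dim on both CD4+CD25hi arrays. Their calls were fitted to dim values, and they are also among the bounds counted below, which support no direction. Against CD45+EpCAM- cells, 9 of 13 were higher and 0 lower, with 19.4% and 19.2% of all genes called; Fabp12, Reg3d, Tff3 and Ces2e were not past the test. Beside 0 lower calls, 12 of the 13 genes had an unadjusted p under 0.05 in this contrast in either direction. These 13 genes had to be detected outside 1 population, so that they are the less restricted members. A gene dim on both arrays of the population it was set against gives only a bound, which had to point to CD45-EpCAM+ cells, so that these bounds support no direction. Against CD4+CD25hi cells 34 genes gave a bound and 31 of these bounds put CD45-EpCAM+ cells higher by 2-fold or more, beside 75% of such bounds over all genes. Against CD45+EpCAM- cells all 29 bounds did, beside 96.3%. The limma counts rest on few arrays: without either CD4+CD25hi array 3 of 13 were called higher than in CD4+CD25hi cells, and without the TNF-KO CD45+EpCAM- array 2 were called higher than in CD45+EpCAM- cells.

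Reg3g, a lectin that kills Gram-positive bacteria at the gut wall, had levels of 2.47 and 4.998 in TNF/RelA-DKO and TNF-KO CD45-EpCAM+ cells, and was not well above background on any other array. Its mean in CD45-EpCAM+ cells exceeded that in CD4+CD25hi cells by 341-fold or more and that in CD45+EpCAM- cells by 592-fold or more. Fabp6, the bile acid carrier of the ileum, exceeded them by 86.4-fold and 150-fold or more, and Fabp1, of liver and small intestine, by 36.8-fold and 64.1-fold or more. These genes were detected in the epithelial sort and in neither of the others.

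Fabp5, the epidermal carrier, was well above background on all 6 arrays. Its levels were 8.09 and 8.30 in TNF/RelA-DKO and TNF-KO CD45-EpCAM+ cells, 4.67 and 4.77 in CD45+EpCAM- cells, and 4.43 and 4.59 in CD4+CD25hi cells. The difference of CD45-EpCAM+ from CD4+CD25hi cells was 3.68 (SE 0.12, limma adjusted p = 0.0013), and that from CD45+EpCAM- cells was 3.48 (SE 0.12, limma adjusted p = 0.0019). Tff1, the trefoil factor of the gastric surface, was also detected everywhere, with levels of -0.39 and 1.71 in TNF/RelA-DKO and TNF-KO CD45-EpCAM+ cells, -4.43 and -3.72 in CD45+EpCAM- cells, and -1.998 and -1.41 in CD4+CD25hi cells. It was the only tested member called between those 2 populations: its level in CD45+EpCAM- minus CD4+CD25hi cells was -2.37 (SE 0.45, limma adjusted p = 0.049), with 7.81% of all genes called higher and 4.8% lower in that contrast and 0 of the 13 members higher. That call was lost under 4 of the other settings tried and when any of the 4 arrays it compares was left out.

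Reg3d, a pancreatic member of the Reg family, ran against the rest. Its levels were -4.94 and -3.95 in TNF/RelA-DKO and TNF-KO CD45-EpCAM+ cells, -3.18 and -3.21 in CD45+EpCAM- cells, and -2.49 and -2.89 in CD4+CD25hi cells. CD45-EpCAM+ minus CD4+CD25hi cells gave -1.75 (SE 0.39, limma adjusted p = 0.027), a call that normexp background correction removed, as did leaving out any 1 of the 4 arrays of the other populations. Tff3, the goblet cell trefoil factor, was well above background outside epithelium too. Its levels were -0.82 and 1.67 in TNF/RelA-DKO and TNF-KO CD45-EpCAM+ cells, -0.96 on both CD45+EpCAM- arrays, and -1.67 and -2.09 in CD4+CD25hi cells, and neither epithelial contrast passed the test (limma adjusted p = 0.083 and 0.227).

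**Figure D2:**
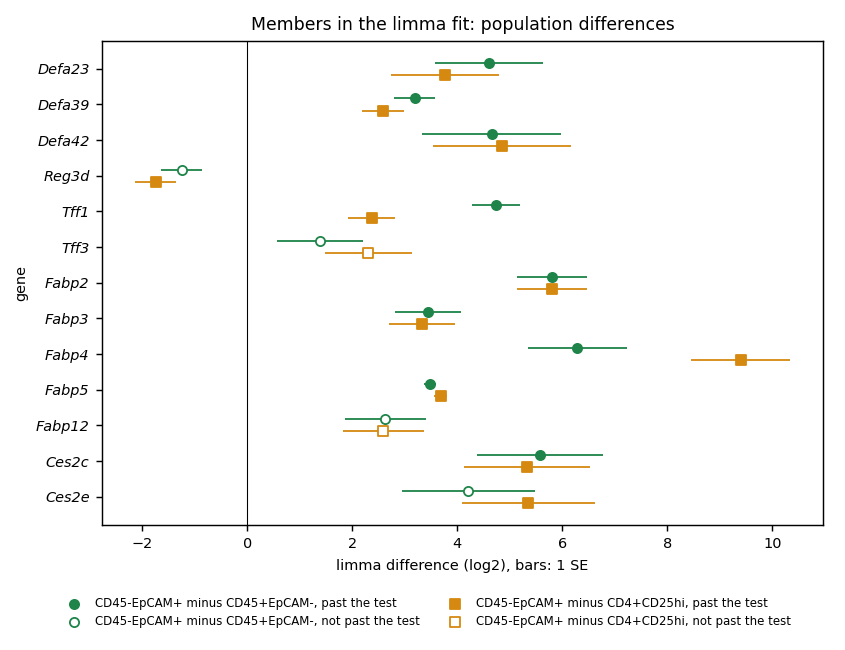
limma difference (x axis, log2) of CD45-EpCAM+ cells from CD45+EpCAM- cells (circles) and from CD4+CD25hi cells (squares) for the 13 tested genes (y axis), with bars of 1 SE and filled symbols for genes past the test. Fabp4 against CD4+CD25hi cells stands farthest right and Fabp5 has the shortest bars; Defa42, Fabp2, Fabp4, Fabp12 and Ces2e were not well above background on either CD4+CD25hi array, so that their squares are fitted to dim values.

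Between the genotypes, most of these genes were lower in TNF/RelA-DKO than in TNF-KO epithelium. Of the 45 genes, 21 were well above background on both CD45-EpCAM+ arrays, and 18 of them were lower in the double knockout by 2-fold or more, 1 was higher by as much and 2 lay between. Among all 11847 genes measured on both arrays, 6.36% were lower and 5.28% higher by 2-fold or more. The median difference of the 21 genes was -2.10, against 0.09 over all genes measured on both arrays. For comparison, probes of a single gene differed in this difference by an SD of 0.32, which is not an error between mice. In bulk RNA of a sort, fewer cells of a type and less RNA per cell cannot be told apart.

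A further 22 genes were detected in TNF-KO CD45-EpCAM+ cells only, and 18 of these gave a bound. Such genes had to come out lower, since they entered through the TNF-KO array, and 7 of the 22 were too dim there for a bound of 2-fold to be possible. With normexp background correction, 4 of the 14 bounds of 2-fold or more stayed past 2-fold (Defa38, Defa42, Ces2a and Ces2b), 9 fell short of it and Reg4 gave no fold. With these bounds, 32 of 39 genes were lower by 2-fold or more and 1 was higher, beside 9.3% and 5.1% of all genes, and the bounds add no support to the count over the 21. Ces1g and Ces2h were dim on both arrays. No test of this difference exists with 1 array per genotype. Of the 18 measured on both arrays, 16 were with normexp still lower by 2-fold or more, and Ces2e and Ces2g were not.

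**Figure D3:**
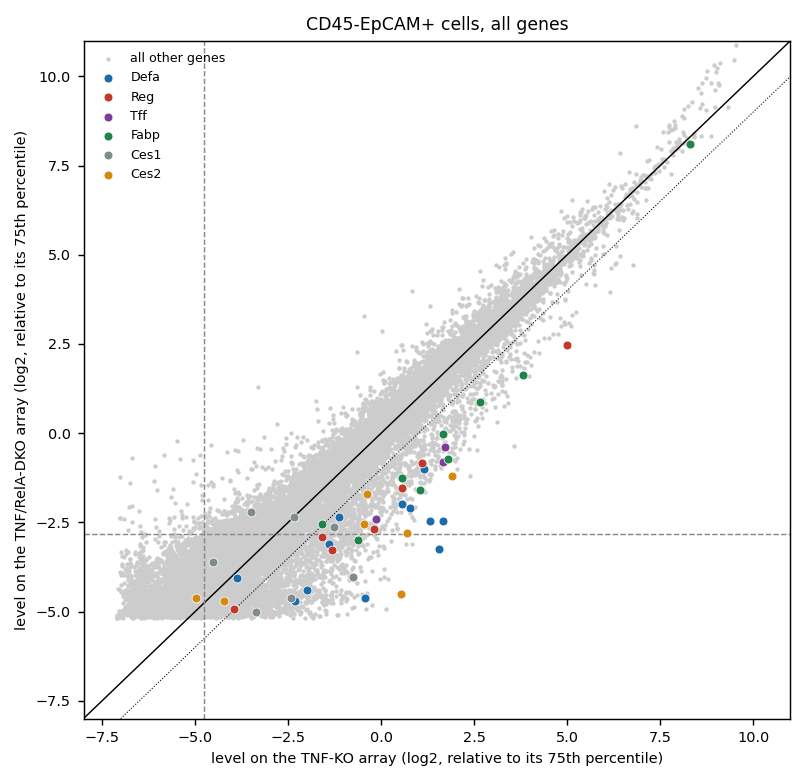
Level on the TNF/RelA-DKO (y axis) against the TNF-KO array (x axis) of CD45-EpCAM+ cells, log2 relative to each array's 75th percentile, for all genes (grey) and the 6 families (colours). The solid line marks equality, the dotted line a 2-fold lower level in TNF/RelA-DKO, and the dashed lines the lowest value well above background on each array, -2.82 for TNF/RelA-DKO and -4.78 for TNF-KO. Most coloured points lie below the dotted line, and those not detected in TNF/RelA-DKO, many of them below the horizontal dashed line, give bounds or no fold.

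Alpha-defensins are the microbicidal peptides that mouse Paneth cells store in granules, and all 4 Defa genes measured on both epithelial arrays were lower in TNF/RelA-DKO by 2-fold or more (median difference -2.71). Defa29 had levels of -2.46 and 1.31 in TNF/RelA-DKO and TNF-KO CD45-EpCAM+ cells, a difference of -3.77. Defa23 had -2.09 and 0.78, a difference of -2.87, and Defa3 had -1.996 and 0.56, a difference of -2.55. With normexp the differences of Defa29, Defa23 and Defa3 were -2.12, -1.59 and -1.33, and Defa23 had -2.25 with the mean over probes.

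Defa32 had levels of -1.01 and 1.15 in TNF/RelA-DKO and TNF-KO CD45-EpCAM+ cells, a difference of -2.17, and its second probe gave -1.07. The other defensins were detected in TNF-KO only. Defa38 was at least 20.7-fold and Defa42 at least 17.1-fold lower, with levels of -3.24 and -2.45 in TNF/RelA-DKO CD45-EpCAM+ cells, which were not well above background, against 1.55 and 1.65 in TNF-KO CD45-EpCAM+ cells. These bounds depend on the background correction: with normexp those of Defa38 and Defa42 were -2.54 and -2.39 on the log2 scale. Both have near-identical promoter windows, printed above, and transcripts of such close copies can reach each other's probes, so that defensins may not be separate measurements. Defa21, Defa40 and Defa39 were at least 5.24-fold, 2.67-fold and 2.31-fold lower, and with normexp their bounds were -0.87, -0.10 and -0.09 on the log2 scale. Defa25, Defa26 and Defa27 had no room for a 2-fold bound.

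Outside epithelium defensin signal was sparse. Defa42 was the one defensin well above background on both CD45+EpCAM- arrays, at -5.02 and -5.09 in TNF/RelA-DKO and TNF-KO cells, a difference of 0.07. Defa27 had levels of -5.10 and -2.96 in TNF/RelA-DKO and TNF-KO CD4+CD25hi cells, which is lower by 2.94-fold or more (a bound of -0.47 on the log2 scale with normexp).

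Reg proteins are small secreted lectins of gut and pancreas, and all 3 Reg genes measured on both epithelial arrays were lower in TNF/RelA-DKO by 2-fold or more (median difference -2.10). Reg3g, whose levels stand above, differed by -2.52, which is 5.75-fold. Reg3b, its relative that acts on Gram-negative bacteria, had levels of -0.83 and 1.103 in TNF/RelA-DKO and TNF-KO CD45-EpCAM+ cells, a difference of -1.93. Reg1, a product of the exocrine pancreas, had -1.54 and 0.56, a difference of -2.10.

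Reg2, a pancreatic relative, Reg3a, an antimicrobial lectin, and Reg4, a lectin of gut secretory cells, were dim in TNF/RelA-DKO CD45-EpCAM+ cells and were at least 5.65-fold, 2.79-fold and 2.36-fold lower. With normexp the bounds of Reg2 and Reg3a were -0.82 and -0.09 on the log2 scale, and Reg4 gave no fold. Reg3d, detected on the TNF-KO array only and below the lowest detected value of its partner, gave no fold. Reg3d was also the one Reg gene detected outside epithelium.

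Trefoil factors are peptides that mucous cells secrete with mucins, and both that were measured on the 2 epithelial arrays were lower in TNF/RelA-DKO by 2-fold or more. Tff3 differed by -2.50 and Tff1 by -2.10, and the second Tff1 probe gave -1.93. Tff2, of the gastric glands, was not well above background in TNF/RelA-DKO CD45-EpCAM+ cells, where its level was -2.40, against -0.15 in TNF-KO cells, which is lower by 4.75-fold or more (a bound of -0.81 on the log2 scale with normexp). In the other populations the differences were smaller: Tff1 differed by -0.71 in CD45+EpCAM- and -0.59 in CD4+CD25hi cells, and Tff3 by 0.00 and 0.42. The SD between probes of a gene was 0.21 and 0.22 in these pairs.

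Fatty acid-binding proteins carry lipids between membranes and enzymes inside cells, and 6 of 7 Fabp genes measured on both epithelial arrays were lower in TNF/RelA-DKO by 2-fold or more (median difference -1.82). All 3 gut members were among them. Fabp1 had levels of -0.73 and 1.79 in TNF/RelA-DKO and TNF-KO CD45-EpCAM+ cells, a difference of -2.52. Fabp2, the enterocyte carrier, had -0.02 and 1.67, a difference of -1.69, and Fabp6 had 0.87 and 2.64, a difference of -1.78.

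Members of other tissues were lower too. Fabp4, of fat cells and macrophages, had levels of 1.64 and 3.83 in TNF/RelA-DKO and TNF-KO CD45-EpCAM+ cells, a difference of -2.19. Fabp9, of testis, had -1.60 and 1.05, a difference of -2.66, and Fabp3, of heart and muscle, had -1.25 and 0.57, a difference of -1.82. Fabp12, a less studied member, was dim in TNF/RelA-DKO and had a bound of -2.19 by its brightest probe, but of -0.58 with normexp and -0.01 with the mean over probes, and its second probe was dim on both epithelial arrays. Fabp7 had a bound of 1.94-fold.

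Fabp5 was the exception, with a difference of -0.21 in CD45-EpCAM+ cells, less than the SD between probes, and -0.10 and -0.16 in CD45+EpCAM- and CD4+CD25hi cells. In CD45-EpCAM+ cells the Fabp5 difference was -0.44 with quantile normalization and -0.73 with normexp, beyond that SD but under 2-fold. Fabp4 went the other way in CD45+EpCAM- cells, where its levels were -2.90 and -4.21 in TNF/RelA-DKO and TNF-KO cells, a difference of 1.32 (0.58 with normexp). Macrophage genes had a median difference of 0.77 in that population, with 7 of 9 above 0, and granulocyte genes one of 1.33. Of adipocyte markers, 3 of 7 were well above background in TNF/RelA-DKO CD45-EpCAM+ cells and 5 of 7 in TNF-KO cells, with summed signals of 1.01 and 1.74 in units of the 75th percentile, and Adipoq, the adiponectin gene, differed by -1.24. The part of these lists in the Fabp4 values was not tested.

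Ces2 enzymes are abundant in gut and liver, and all 3 Ces2 genes measured on both epithelial arrays were lower in TNF/RelA-DKO by 2-fold or more (median difference -2.07). Of these, only Ces2c stayed past 2-fold with normexp. Ces2c, which cleaves acylglycerols, had levels of -1.21 and 1.90 in TNF/RelA-DKO and TNF-KO CD45-EpCAM+ cells, a difference of -3.11, and its other probes gave -1.9997 and -2.65. Ces2e had -2.55 and -0.47, a difference of -2.07, though its second probe was dim on every array. The difference of Ces2e was -0.73 with normexp and -0.50 with the mean over probes. Ces2g had -1.72 and -0.39, a difference of -1.33 (-0.49 with normexp).

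Ces2b and Ces2a were dim in TNF/RelA-DKO CD45-EpCAM+ cells, at -2.81 and -4.51, against 0.68 and 0.52 in TNF-KO cells, and were at least 11.2-fold and 10.1-fold lower. Their bounds shrank to -1.68 and -1.54 on the log2 scale with normexp. Ces2f gave no fold. In CD45+EpCAM- cells Ces2e went the other way, with levels of -4.31 in TNF/RelA-DKO and -7.13, not well above background, in TNF-KO cells, and was at least 2.15-fold higher (a bound of 0.31 on the log2 scale with normexp).

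Of the 2 Ces1 genes measured on both epithelial arrays, 0 were lower by 2-fold and 1 was higher. Whether the Ces1 and Ces2 groups differ was not tested. Ces1b had levels of -2.20 and -3.50 in TNF/RelA-DKO and TNF-KO CD45-EpCAM+ cells, a difference of 1.30, the one difference of 2-fold or more in that direction among the 45 genes in this population. Ces1a had levels of -2.34 and -2.35, a difference of 0.00. Both lay close to the lowest detected value of the TNF/RelA-DKO array, -2.82. So did some genes counted as lower, among them Ces2e (-2.55), Defa29 (-2.46) and Defa23 (-2.09) in TNF/RelA-DKO CD45-EpCAM+ cells.

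Ces1f and Ces1d, enzymes of liver lipid turnover, were at least 4.13-fold and 2.58-fold lower, and with normexp their bounds shrank to -0.62 and -0.01 on the log2 scale. Ces1e could reach only 1.31-fold and Ces1c gave no fold. No Ces1 gene was detected outside epithelium. Of 4 carboxylesterase genes of other groups, 1 had a difference, a bound of -0.04.

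In the other populations few of these genes were 2-fold apart between genotypes. In CD45+EpCAM- cells 14 genes had a difference, of which 0 were lower by 2-fold or more and 2 higher (Fabp4 and Ces2e), with 2.08% and 1.82% of all genes and a median of 0.20. In CD4+CD25hi cells 9 had a difference, of which 1 was lower (Defa27) and 0 higher, with 1.28% and 1.68% of all genes and a median of 0.17. Ces2e and Defa27 gave bounds here, which could only point higher and lower. Of the 14 and 9 differences, 10 and 5 were measured on both arrays. Whether these differences depart from those in CD45-EpCAM+ cells cannot be tested, because the 6 arrays leave no spread once genotype may differ by population. When limma was fitted to a genotype effect shared by all populations, 0 of 13 tested genes were called, with 0% of all genes called; 1 member, Tff1, had an unadjusted p under 0.05 (-1.13, SE 0.37, adjusted p = 0.679), as did 872 genes overall.

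Other genes of the same tissues, taken from lists of textbook markers, also lay lower in TNF/RelA-DKO epithelium. Of 14 other enterocyte genes measured on both arrays 9 were lower by 2-fold or more and 1 was higher, and their median was -2.12. Aoc1, a diamine oxidase of the gut lining, had levels of -0.48 and 2.57 in TNF/RelA-DKO and TNF-KO CD45-EpCAM+ cells, a difference of -3.06. The brush border genes Mep1a (a protease) and Vil1 (villin) differed by -2.35 and -2.28, and Apoc3 and Apoa4, apolipoproteins of chylomicrons, by -2.55 and -2.20. Of 16 other Paneth and goblet cell genes 10 were lower by 2-fold or more and 0 higher, and their median was -1.28. Lyz1, the Paneth cell lysozyme, differed by -2.35, Spink4, a goblet cell protease inhibitor, by -2.74, and Mmp7, the protease that activates mouse alpha-defensins, by -1.85. Lyz1 was not particular to the epithelial sort, with levels of 0.72 and 0.71 in TNF/RelA-DKO and TNF-KO CD45+EpCAM- cells. Its relative Lyz2, of the macrophage list, differed by -1.43 in CD45-EpCAM+ cells.

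Factors that drive such genes in gut and liver were lower by 2-fold or more in 4 of 8 cases and higher in 1 (median -0.95). Cdx1, an intestinal identity factor, had levels of 3.01 and 4.83 in TNF/RelA-DKO and TNF-KO CD45-EpCAM+ cells, a difference of -1.82. Isx, an intestinal homeobox factor, was detected in TNF-KO only and is not among the 8. It was at least 7.78-fold lower, a bound that could only point lower. Gata5 differed by 1.70 and Hnf4a by 0.06. Of 8 genes of microfold cells, the gut cells that sample antigen, 5 were lower by 2-fold or more (median -1.53), among them Spib (-1.66) and Gp2 (-1.65).

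Markers of epithelial subsets and of other cells moved alongside. Of 13 medullary genes measured on both arrays 10 were lower by 2-fold or more (median -1.47): Aire had levels of -0.86 and 1.04 in TNF/RelA-DKO and TNF-KO CD45-EpCAM+ cells, and Fezf2 had 0.86 and 2.75. Of 12 cortical genes 0 were lower and 1 was higher (median 0.62). In units of the 75th percentile, the summed signal was 115 and 163 for the medullary list in TNF/RelA-DKO and TNF-KO CD45-EpCAM+ cells, 1894 and 1149 for the cortical list, 166 and 86.5 for 8 T cell genes, and 9.24 and 32.8 for 7 granulocyte genes. Krt5, a keratin gene with the highest levels of the medullary list (6.43 in TNF/RelA-DKO and 6.44 in TNF-KO), carried most of both medullary sums. Its difference was -0.01. All 12 cortical and all 8 T cell genes were well above background on both arrays, while 6 of 7 granulocyte genes were in TNF/RelA-DKO and 7 of 7 in TNF-KO cells. Of 6 granulocyte genes measured on both arrays 5 were lower by 2-fold or more (median -1.84), and of 8 T cell genes 1 was higher (median 0.86). The medians of the remaining lists, over genes measured on both arrays, were -0.24 for 7 general epithelial, -0.89 for 3 adipocyte, 0.59 for 3 endothelial, 0.60 for 8 macrophage, 1.02 for 4 regulatory T cell and 0.24 for 5 fibroblast genes, and 1 B cell gene gave -0.16. For dendritic cell genes the median was 0.46 over 2 genes, Siglech and Bst2. Siglech was also high in CD4+CD25hi cells, at 7.42 and 7.28 in TNF/RelA-DKO and TNF-KO. Itgax and Flt3 of that list, detected in TNF-KO only, had bounds of -0.35 and -1.34, which could only point lower. The part of these shifts in the values of the 6 families was not tested.

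**Figure D4:**
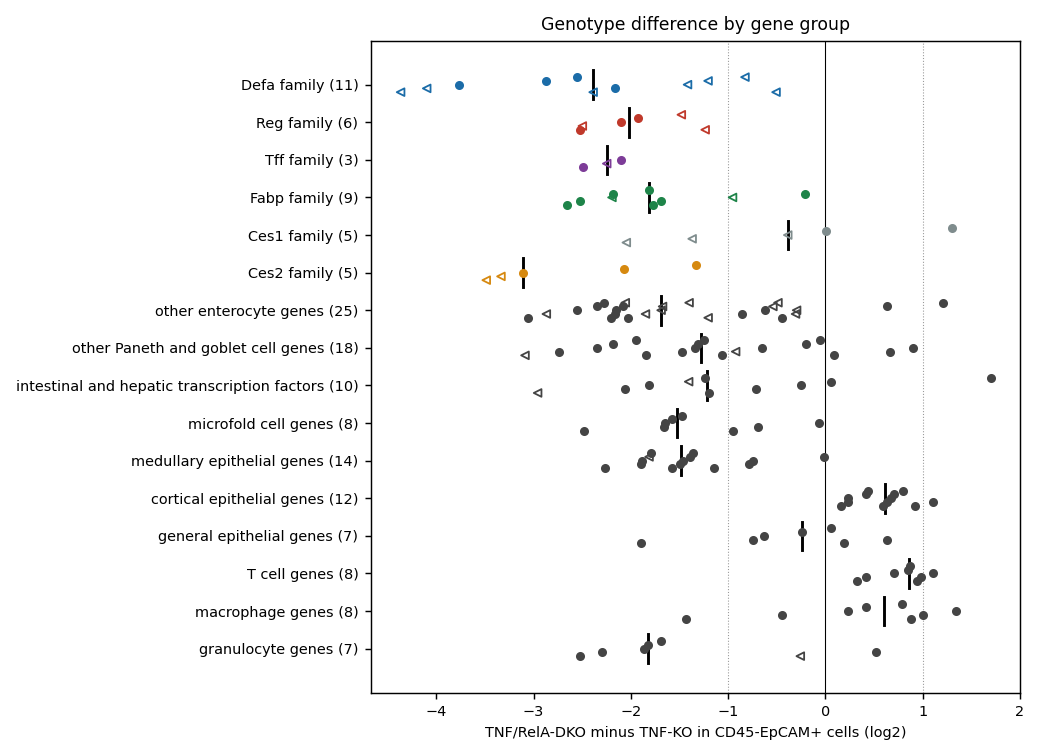
Difference of TNF/RelA-DKO minus TNF-KO CD45-EpCAM+ cells (x axis, log2) for each gene with a difference in the 6 families (colours) and in 10 marker lists (grey), with the number of genes in brackets; filled points are measured on both arrays, open triangles are bounds, black bars are medians and dotted lines mark 2-fold. With bounds counted, the medians of Defa and Ces2 are -2.39 and -3.11, against -2.71 and -2.07 over genes measured on both arrays, and the medians of the cortical (0.62), T cell (0.86) and macrophage lists (0.60) lie above 0.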

How the data were processed

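Single arrays of 6 groups were compared. Per the file headers, the authors deposited spot intensity values from Feature Extraction 10.5.1.1 (design 026655); the submitters' processing notes name version 9.5. The deposited value table is on a log2 scale whose unit no source states; it matched log2 of the processed signal minus the 75th percentile to within an offset per array of -0.00536 to -0.000413, with at least 99.8% of probes within 0.05. Its column medians were -3.61 and -3.71 (TNF/RelA-DKO and TNF-KO CD4+CD25hi), -2.72 and -2.84 (CD45-EpCAM+), and -3.58 and -3.63 (CD45+EpCAM-).

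Control and outlier spots were left out, and spots of a probe averaged. Of 39429 probes 39419 were used and 10 had no usable spot on an array. Through their accessions in the RefSeq gene table (GRCm38.p6), 27472 probes had 1 symbol, 35 several and 11912 none; the design names build mm9, so no gene coordinates are given beyond RefSeq's own promoter windows. For 2639 probes the accession differed between design versions. No probe was saturated.

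Genotypes within a population were compared by difference, with no test, among genes detected (well above background by the scanner's flag) on either array. limma 3.58.1 (R 4.3.3) fitted population and genotype over 13743 genes detected on 3 or more arrays (residual degrees of freedom 2, prior 1.74); p-values were Benjamini-Hochberg adjusted, and calls needed an adjusted p of 0.05 and, between populations, 2-fold. The scripts were tested on simulated data. Alternatives were quantile normalization, median centring, normexp (offset 50), the mean over probes, the deposited table, other background filters and leaving out each array. The files have no mean-signal column, so normexp was run on median signals, which was decided after the files were seen. The members and the 18 gene lists were chosen with earlier results of these data known. Every family gene well above background on an array could be named, and of each other list up to 6 genes with the largest difference in CD45-EpCAM+ cells, plus Rela, Tnf, Aire, Fezf2 and Epcam. Foxp3, Hnf4a, Vcam1 and Krt5 were added after their values were seen. The lists are other enterocyte, other Paneth and goblet cell, intestinal and hepatic transcription factor, microfold, medullary, cortical, general epithelial, adipocyte, endothelial, macrophage, dendritic, T, regulatory T, B, granulocyte and fibroblast genes, other carboxylesterases, and a genotype check. Identity between promoter windows is the window length less the edit distance, as a percentage of that length.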

Additional observations from a re-analysis of the deposited data

Results flagged for a closer look

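Fabp4 and Ces2e differed between genotypes in opposite directions in 2 populations. Fabp4, the fat cell and macrophage lipid carrier, was -2.19 in CD45-EpCAM+ cells and 1.32 in CD45+EpCAM- cells (TNF/RelA-DKO minus TNF-KO, log2). Ces2e, an esterase of gut and liver, was -2.07 in CD45-EpCAM+ cells and at least 1.101 in CD45+EpCAM- cells, where it was dim in TNF-KO. With normexp the CD45+EpCAM- values were 0.58 for Fabp4 and at least 0.31 for Ces2e, both under 2-fold, and Ces2e in CD45-EpCAM+ cells was -0.73. In CD45+EpCAM- cells macrophage genes had a median of 0.77 and granulocyte genes one of 1.33, and their part was not tested. Each value rests on 1 array per genotype, and the difference between populations was not tested.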

How the results depend on the processing

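No paired analysis was possible within a population because each group had 1 array and the labels give no replicate numbers. Only the common genotype effect compares the genotypes population by population, over all 6 arrays. The count of genes lower by 2-fold or more in TNF/RelA-DKO CD45-EpCAM+ cells was 32; it was 20 with normexp and 18 with both arrays required well above background, and the median of -2.10 was -1.36 with normexp. In CD45+EpCAM- cells the 2 higher genes became 1 with quantile normalization, the mean over probes or both arrays required, and 0 with normexp. In CD4+CD25hi cells the 1 lower gene became 0 with normexp or both arrays required, and the median of 0.17 was -0.12 with the mean over probes. Without a filter on dim genes, limma called 34 genes higher in CD45-EpCAM+ than in CD4+CD25hi cells (10 with it) and 36 higher than in CD45+EpCAM- cells (9 with it). The 1 gene lower than in CD4+CD25hi cells (Reg3d) became 0 with normexp. The 1 gene lower in CD45+EpCAM- than in CD4+CD25hi cells (Tff1) became 0 with median centring, no filter, normexp or quantile normalization. The cause of these shifts was not tested, except that requiring both arrays or dropping the filter changes how many genes enter. Leaving out 1 array at a time, with the lone array assumed to vary like the others, gave 3 to 12 higher and 0 to 1 lower for CD45-EpCAM+ against CD4+CD25hi cells (3 without either CD4+CD25hi array). It gave 2 to 12 higher and 0 to 1 lower against CD45+EpCAM- cells (2 without the TNF-KO CD45+EpCAM- array), 0 to 1 in each direction for CD45+EpCAM- against CD4+CD25hi cells, and 0 for the common genotype effect. Among single differences in CD45-EpCAM+ cells, none of 1 or more changed sign; normexp moved 29 of 34 by more than the SD between probes, quantile normalization 19 of 39, the mean over probes 6 of 39, and the deposited table and median centring 0 of 39. The TNF/RelA-DKO CD45-EpCAM+ array is the dimmest, which limits how low a gene can be read.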
